A study of Mus musculus with 12 samples.

Results

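Red blood cells carry the oxygen that muscle burns, and a piece of muscle carries them in its vessels, so RNA of a muscle sample includes some RNA of blood. The genes described here are 4 genes of the red cell lineage: Hba-a1, which encodes the alpha chain of haemoglobin, Alas2 and Fech, which encode enzymes of haem synthesis, and Slc4a1, which encodes the anion exchanger band 3 of the red cell membrane. All probes that the platform annotation assigned to these symbols were taken: 1 each for Hba-a1, Alas2 and Slc4a1 and 4 for Fech, together 7 of the 45281 probes and 4 of the 19057 named genes. A probe counted as detected on an array where its deposited detection p-value was below 0.05, and it was tested if detected on at least 4 of the 12 arrays. All 4 genes and all 7 probes passed that filter, Slc4a1 with exactly the 4 arrays required. Fech differs from the other members in that every cell that makes haem uses it.

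The samples were lower abdominal muscle of male FVB/N mice aged 1 month, hybridised as biotin-labelled RNA to Illumina bead arrays, which read 1 brightness (intensity, in arbitrary units) per probe. Wild-type mice (WT) were the controls, and AromhumL and AromhumH were humanized aromatase transgenic mice with a lower and a higher expression of human aromatase, the enzyme that turns androgens into oestrogens. Each group had 4 arrays, 12 in all. The labels name neither the promoter of the transgene nor the number of founders, and they do not say that each array came from its own animal. The p-values therefore reflect the spread of these 12 samples alone, some of which can be technical. The title of the series concerns muscle loss, fibrosis and herniation when androgen action gives way to oestrogen action, and the 4 genes bear on how much red cell RNA each sample held. Fewer red cells in a sample and less RNA per red cell cannot be told apart in such bulk samples.

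Haemoglobin is a tetramer of alpha and beta globin chains, each of which holds a haem group with an iron atom. Haem synthesis starts in the mitochondrion with 5-aminolevulinate synthase, made from Alas2 in the red cell lineage and from Alas1 in other tissues, and ends there with ferrochelatase, the product of Fech, which inserts iron into protoporphyrin. Mature red cells have no nucleus, but young ones (reticulocytes) keep mRNA of globins and Alas2 for a short time after they enter the blood. In red cell precursors in the bone marrow, globin genes, Alas2 and Slc4a1 are known targets of the transcription factors GATA1, which binds the letters GATA, and KLF1, which binds C-rich sequences.

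The promoter sequences are shown for Hba-a1 and Alas2, the members whose levels varied most between arrays and followed each other most closely, and for Hbb-bs and Hbb-bt, the beta-globin genes that followed Hba-a1 most closely. Each is the 250 bases before the annotated start of the gene, 5′ to 3′ on the gene's strand, taken from RefSeq on build GRCm38.p6, in which 2 of the 4 members had an entry. They lie at chr11:32283422-32283671 on the plus strand (Hba-a1), chrX:150547167-150547416 on the plus strand (Alas2), chr7:103827929-103828178 on the minus strand (Hbb-bs) and chr7:103813924-103814173 on the minus strand (Hbb-bt). Capitals mark each match, on either strand, to GATAA (reverse complement TTATC) or to CCNCNCCC (reverse complement GGGNGNGG).
Hba-a1: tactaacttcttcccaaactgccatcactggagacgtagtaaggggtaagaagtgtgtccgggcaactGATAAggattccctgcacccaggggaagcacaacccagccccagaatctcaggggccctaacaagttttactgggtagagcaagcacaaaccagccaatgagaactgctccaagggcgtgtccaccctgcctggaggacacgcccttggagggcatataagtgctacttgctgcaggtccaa
Alas2: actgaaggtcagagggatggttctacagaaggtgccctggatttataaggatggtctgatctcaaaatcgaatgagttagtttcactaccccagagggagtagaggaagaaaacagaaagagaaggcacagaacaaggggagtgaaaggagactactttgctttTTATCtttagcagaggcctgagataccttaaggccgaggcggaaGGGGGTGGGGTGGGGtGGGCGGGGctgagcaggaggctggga
Hbb-bs: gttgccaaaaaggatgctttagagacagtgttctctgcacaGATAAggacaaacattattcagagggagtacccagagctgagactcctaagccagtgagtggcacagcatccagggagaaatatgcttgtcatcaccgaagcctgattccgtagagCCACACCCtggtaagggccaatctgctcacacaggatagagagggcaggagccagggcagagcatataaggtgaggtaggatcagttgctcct
Hbb-bt: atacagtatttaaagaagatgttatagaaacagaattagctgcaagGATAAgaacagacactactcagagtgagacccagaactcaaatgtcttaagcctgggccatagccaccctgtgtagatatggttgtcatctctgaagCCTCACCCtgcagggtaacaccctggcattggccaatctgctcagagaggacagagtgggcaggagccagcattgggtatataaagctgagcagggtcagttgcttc

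Each of these promoters held 1 GATAA match, which began at position -182 from the start site in Hba-a1, -86 in Alas2, -209 in Hbb-bs and -204 in Hbb-bt. Of all 32851 mouse promoters of that length in the same table, 22.6% held at least 1 GATAA. The C-rich letters CCNCNCCC, present in 45.9% of all promoters, occurred 4 times in Alas2, where neighbouring matches overlap, once in Hbb-bs, once in Hbb-bt and 0 times in Hba-a1. The letters CCAAT, not capitalised and present in 33.8% of all promoters, occurred 1 time in Hba-a1 and Hbb-bs, 3 times in Hbb-bt and 0 times in Alas2. These matches describe the letters only, and the series holds no measurement of binding.

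Hba-a1 was detected on 12 of 12 arrays and was among the genes that varied most between arrays of 1 group. In WT its deposited intensity was 5808, 8646, 21455 and 17044 on replicates 1 to 4. In AromhumL it was 6594, 4439, 5180 and 7744, and in AromhumH 8948, 10377, 20528 and 19125. WT replicates 3 and 4 and AromhumH replicates 3 and 4 stood above all other arrays, every AromhumL array stood below every AromhumH array, and WT overlapped both, with AromhumL replicates 2 and 3 below every WT array. The highest WT array was 3.69 times the lowest, against 1.74 times within AromhumL and 2.29 times within AromhumH. After background correction and normalization between arrays, the log2 level was 13.45 ± 0.606 in WT, 12.80 ± 0.419 in AromhumL and 13.56 ± 0.695 in AromhumH (SD, n = 4). On that scale AromhumH replicate 1, at 12.76, lay below AromhumL replicate 1, at 13.22, so these groups overlapped.

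Alas2, whose product limits the rate of haem synthesis in the red cell lineage, was also detected on 12 of 12 arrays. Its intensity was 134, 126, 441 and 294 on WT replicates 1 to 4. It was 124, 119, 120 and 147 in AromhumL, and 177, 225, 318 and 331 in AromhumH. The arrays with the highest Hba-a1 were also those with the highest Alas2: WT replicates 3 and 4 and AromhumH replicates 3 and 4. WT replicates 1 and 2 lay within the range of AromhumL, and AromhumH did not overlap AromhumL in raw intensity. The normalized log2 level was 7.03 ± 1.04 in WT, 6.31 ± 0.445 in AromhumL and 7.38 ± 0.789 in AromhumH (SD, n = 4), and AromhumH replicate 1, at 6.41, was the array that overlapped AromhumL.

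Slc4a1, whose product exchanges chloride for bicarbonate and anchors the membrane skeleton of the red cell, lay close to background. It was detected on 2 of 4 WT arrays, 0 of 4 AromhumL arrays and 2 of 4 AromhumH arrays. Its intensity was 91.0, 90.2, 106 and 91.1 on WT replicates 1 to 4, 79.4, 84.3, 82.5 and 83.7 in AromhumL, and 89.1, 86.8, 102 and 101 in AromhumH. All AromhumL arrays were below all arrays of the other groups in raw intensity, and the highest arrays were WT replicate 3 and AromhumH replicates 3 and 4. Because no AromhumL array detected it, the level there has only an upper bound, taken per array as the larger of the Slc4a1 value and the dimmest detected probe. Against that bound it was 1.1-fold higher in WT and 1.12-fold higher in AromhumH. Mean normalized log2 levels were 4.85 in WT, 4.87 in AromhumH and 4.49 in AromhumL. The WT and AromhumH means include arrays that did not detect it, so these folds are not strict lower limits.

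Fech had 4 probes, and they did not move alike. The probe with the highest mean after normalization, called probe 2 here, was detected on 12 of 12 arrays with intensities of 102, 103, 139 and 124 on WT replicates 1 to 4. In AromhumL it read 82.6, 99.4, 107 and 108, and in AromhumH 121, 115, 124 and 117. It was lower on every AromhumL array than on every AromhumH array before normalization, and WT overlapped both. Probe 1, also detected on 12 of 12 arrays, read 113, 128, 119 and 123 in WT, 94.7, 111, 120 and 98.6 in AromhumL, and 104, 99.3, 118 and 91.2 in AromhumH, so that its lowest arrays were in AromhumH and AromhumL. Probe 3 was detected on 5 and probe 4 on 10 of the 12 arrays, with intensities between 79.5 and 107 on every array. The highest reading of any Fech probe was 139, so all 4 lay close to background.

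**Figure D1:**
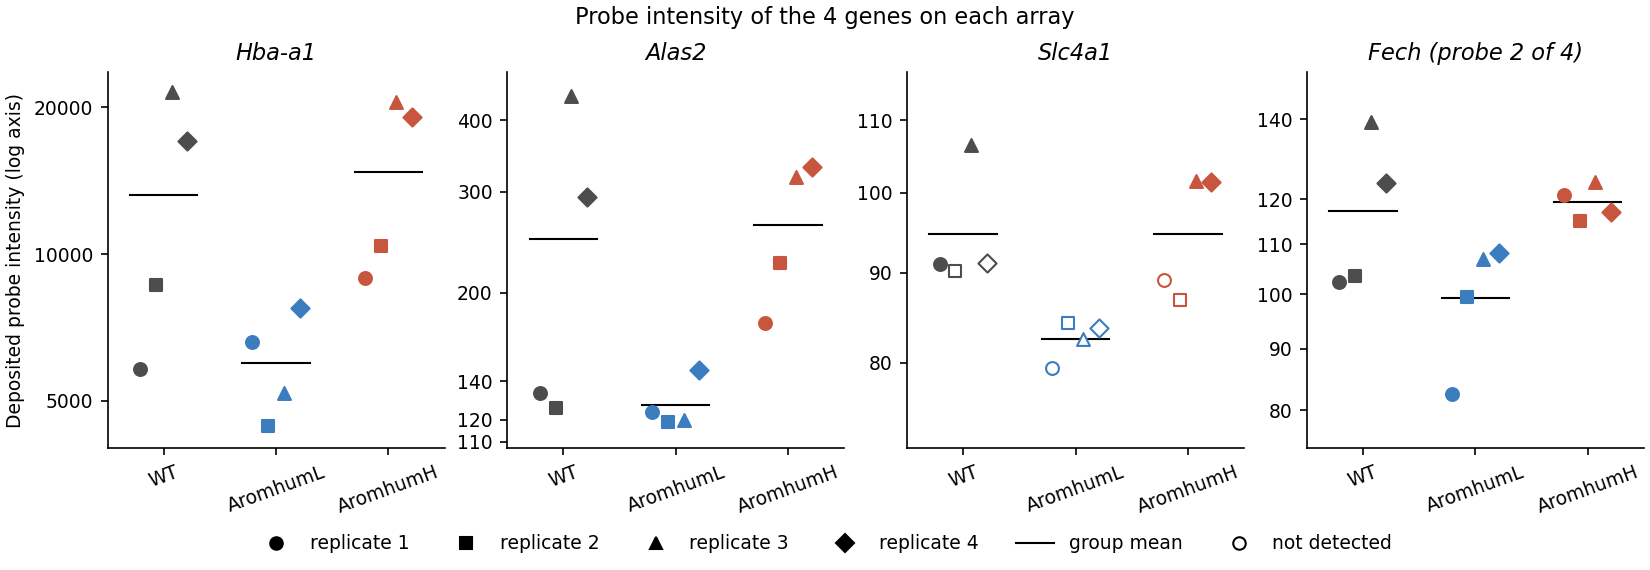
Deposited intensity (arbitrary units, log axis, a separate scale per gene) of Hba-a1, Alas2, Slc4a1 and Fech probe 2 on each of the 12 arrays. Symbols mark the replicate number, open symbols arrays on which the probe was not detected, and lines the mean of 4 arrays. WT replicates 3 and 4 and AromhumH replicates 3 and 4 are the highest arrays for Hba-a1 and Alas2. Every AromhumL array lies below every AromhumH array in all 4 panels, as in raw intensity for 31.7% of all genes tested. After normalization these 2 groups overlapped for each member.

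These raw intensities were read beside the brightness of the whole arrays. Mean intensity over all probes ran from 221.6 on AromhumL replicate 1 to 373.2 on AromhumH replicate 1, and AromhumH arrays were brighter than AromhumL arrays by 75.7 on average (two-sided exact permutation p = 0.0286, the smallest that 4 arrays against 4 can give). Of all 10575 genes tested, 31.7% were higher on every AromhumH than on every AromhumL array in raw intensity, so the 4 of 4 members that were so are to be read against that share. After normalization 0 of the 4 members kept groups apart, against 7.73% of all genes that were higher in AromhumH without overlap. The raw separation of Slc4a1 between AromhumL and WT was shared by 8.46% of all genes, which were lower on every AromhumL array. AromhumH replicate 1 was the brightest array and had the lowest Hba-a1 of its group.

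The comparison of AromhumL with WT asks whether a lower expression of human aromatase went with a different content of red cell RNA. Hba-a1, Alas2 and the brightest Fech probe had lower mean log2 levels in AromhumL, Slc4a1 has only a bound there, and 0 of the 4 members passed the test at an adjusted p under 0.05, as did 0% of all genes tested. For Hba-a1 the difference of means was -0.65 on the log2 scale (SE 0.331, 95% interval -1.35 to 0.05, adjusted p = 0.605 by limma), which is 1.57-fold lower in AromhumL. For Alas2 it was -0.72 (SE 0.441, 95% interval -1.66 to 0.21, adjusted p = 0.644 by limma). Fech probe 2 differed by -0.23 (SE 0.19, adjusted p = 0.727 by limma), while probe 1 was at -0.06, probe 3 at 0.12 and probe 4 at 0.05. Slc4a1, which entered the test through WT and AromhumH alone, was 1.1-fold higher in WT against its bound. As fitted it differed by -0.35 (95% interval -0.75 to 0.04, adjusted p = 0.605 by limma), with AromhumL values that are background readings. With Slc4a1 at its bound the median over the members was -0.44, beside 0.01 over all genes tested. Without WT replicate 3 the differences were nearer 0, at -0.43 for Hba-a1 and -0.33 for Alas2.

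The comparison of AromhumH with WT puts the same question for the higher expression of human aromatase, against the same WT arrays. Again 0 of the 4 members passed the test, where 1.18% of all genes did. Hba-a1 differed by 0.11 (SE 0.331, 95% interval -0.60 to 0.81, adjusted p = 0.916 by limma) and Alas2 by 0.35 (SE 0.441, 95% interval -0.59 to 1.28, adjusted p = 0.747 by limma). Slc4a1 differed by 0.03 (SE 0.185, 95% interval -0.37 to 0.42) and Fech probe 2 by 0.05 (SE 0.19, 95% interval -0.35 to 0.46), with adjusted p-values of 0.974 and 0.93 by limma. The intervals of Hba-a1 and Alas2 are wide, and for every member the sign turned when 1 of the arrays was left out: Hba-a1 was -0.13 without WT replicate 1, Alas2 -0.01 and Fech -0.05 without WT replicate 2, and Slc4a1 -0.12 without AromhumH replicate 4.

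Between the transgenic groups, which differ in the level of human aromatase, Hba-a1, Alas2 and Fech probe 2 had higher means in AromhumH, Slc4a1 again has only a bound, and 0 of the 4 members passed the test, where 6.03% of all genes did. The arrays are those already compared with WT, so the 3 comparisons are not independent. Hba-a1 differed by 0.76 (SE 0.331, 95% interval 0.05 to 1.46, adjusted p = 0.17 by limma), a 1.69-fold higher level in AromhumH. Alas2 differed by 1.07 (SE 0.441, 95% interval 0.13 to 2.01, adjusted p = 0.146 by limma), which is 2.1-fold. Before adjustment the limma p-values of these 2 members were under 0.05, as were those of 13.4% of all genes in that direction. Fech probe 2 differed by 0.28 (SE 0.19, adjusted p = 0.386 by limma). Slc4a1 was 1.12-fold higher in AromhumH against its bound. As fitted it differed by 0.38 (95% interval -0.02 to 0.77, adjusted p = 0.219 by limma). With Slc4a1 at its bound the median over the members was 0.52, beside -0.003 over all genes. When arrays were only scaled to 1 median, Hba-a1 (1.16, adjusted p = 0.0301 by limma) and Alas2 (1.47, adjusted p = 0.0282 by limma) passed the test, but that scaling also left the median of all genes at 0.35. With array brightness as a covariate the Hba-a1 difference was 0.71 and its adjusted p was 0.714 by limma.

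**Figure D2:**
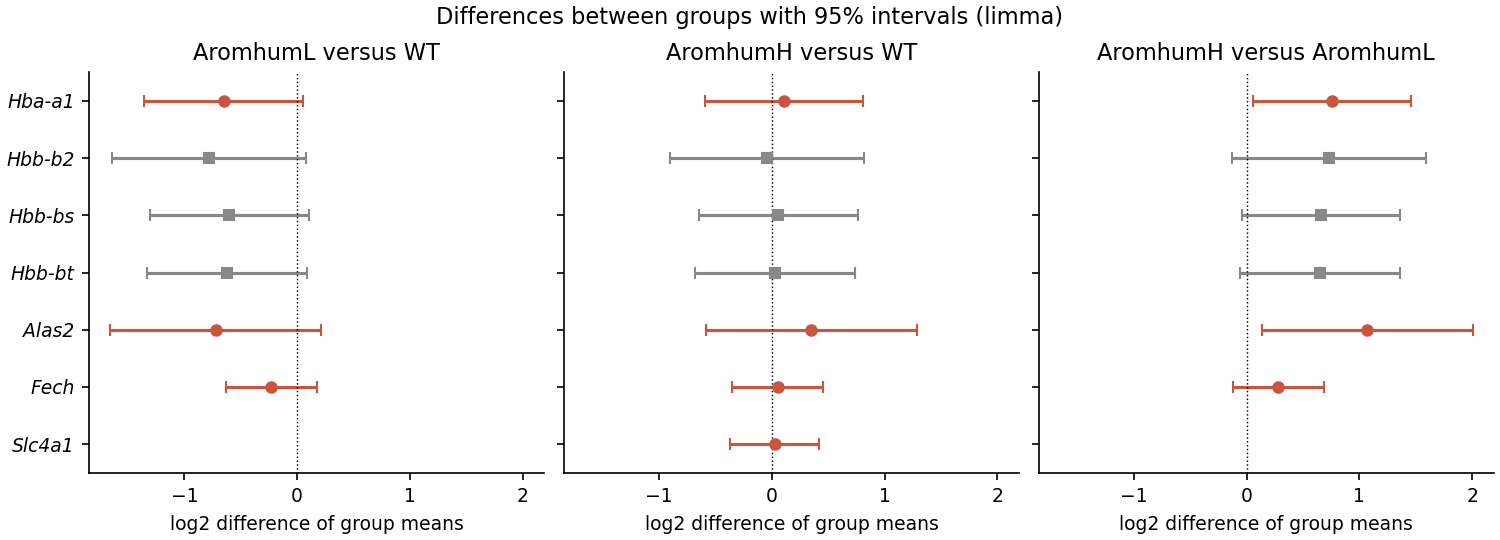
Log2 difference of group means with 95% intervals from the limma fit for the 4 members (circles) and for Hbb-b2, Hbb-bs and Hbb-bt (squares), in the 3 comparisons. Slc4a1 is drawn for AromhumH versus WT alone, since it was not detected in AromhumL. Points lie left of 0 for AromhumL versus WT and right of 0 for AromhumH versus AromhumL, where the intervals of Hba-a1 and Alas2 leave out 0. 0 of the 4 members passed the test after adjustment in any of the 3 comparisons.

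The Fech probes disagreed in sign between comparisons, so the gene had no single value. Probe 1 was lower in AromhumH than in WT by a log2 difference of -0.61 (SE 0.18, adjusted p = 0.115 by limma over all 19004 detected probes) and lower than in AromhumL by -0.55 (SE 0.18, adjusted p = 0.0817 by limma). Its normalized log2 values were 5.04, 5.03, 5.62 and 4.84 in AromhumH and 5.51 to 6.03 in WT, so that AromhumH replicate 3 was the array that overlapped. Probe 2, used above, gave 0.05 and 0.28 in the same comparisons, probe 3 gave 0.18 and 0.06, and probe 4 gave -0.20 and -0.25. Of the 4 probes 0 passed the test in any comparison, beside 0.752% of all detected probes in AromhumH versus WT and 4.74% in AromhumH versus AromhumL. Probes 1 and 2 were close to a tie for the highest mean, and without background correction probe 1 was taken, with differences of -0.24 against WT and -0.21 against AromhumL.

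**Figure D3:**
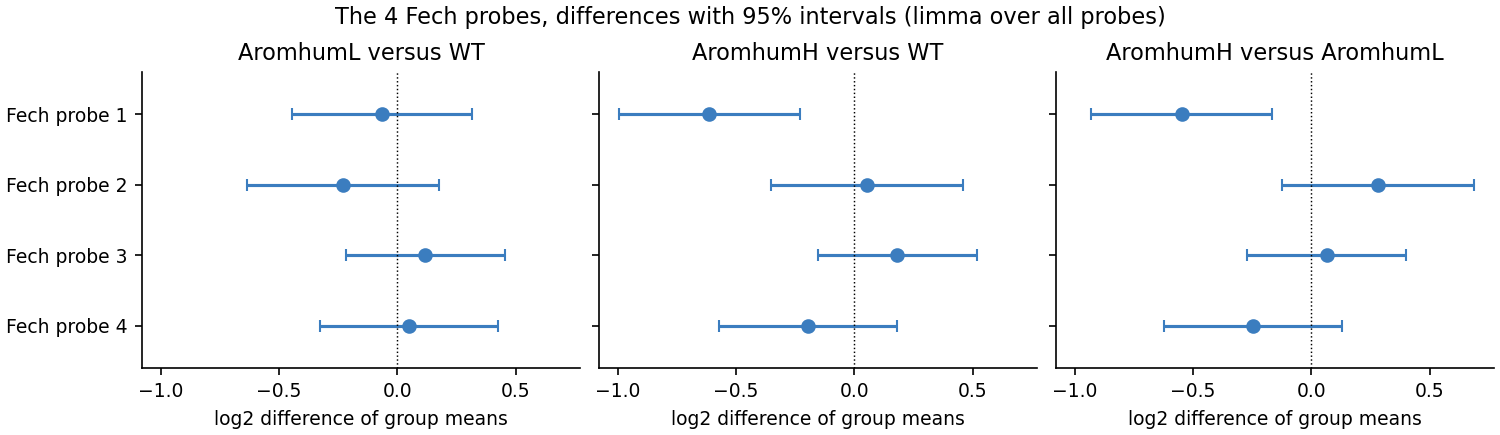
Log2 difference of group means with 95% intervals for each of the 4 Fech probes in the 3 comparisons, from the limma fit over all detected probes. In AromhumH versus WT, probes 1 and 4 lie below 0 (-0.61 and -0.20) and probes 2 and 3 above it (0.05 and 0.18).

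The spread between arrays of the same group was the most marked property of Hba-a1 and Alas2. The residual SD on the log2 scale was 0.585 for Hba-a1, larger than that of 98.3% of all genes tested, and 0.797 for Alas2, larger than that of 99.5%. Those of Slc4a1 (0.287) and Fech (0.298) were nearer the median of all genes, 0.227, and exceeded 74.6% and 77.6% of genes. The beta-globin genes varied as much as Hba-a1 did, with residual SDs of 0.727 for Hbb-b2, 0.584 for Hbb-bs and 0.589 for Hbb-bt. With 4 arrays a group, a spread of this size gave Hba-a1 a standard error of 0.331 per comparison, against a median of 0.16 over all genes.

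Hba-a1 and Alas2 went up and down together from array to array. Over the 12 arrays their normalized log2 levels had a Pearson r of 0.934 (two-sided permutation p, adjusted over 6 pairs of members, 0.00018) and a Spearman rho of 0.867 (adjusted permutation p = 0.00342). Without AromhumH replicate 4 and WT replicate 3, the arrays farthest from the median of Hba-a1, r was 0.884 over 10 arrays (adjusted permutation p = 0.00438). As deviations from the group means, r was 0.913 (adjusted permutation p = 0.00078), so the relation was there within groups as well. All points come from 12 RNA samples measured and normalized together.

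Slc4a1 and Fech probe 2 followed the same arrays more loosely. Slc4a1 was detected on 4 arrays in all and on 0 of the 4 AromhumL arrays, so most of its values are background readings. Its coefficients and p-values below, those within groups included, therefore cannot show that its RNA level followed that of the other genes. Slc4a1 had an r of 0.739 with Hba-a1 and a rho of 0.797 (adjusted permutation p = 0.0128 and 0.0093), but r was 0.508 without the same 2 arrays (adjusted permutation p = 0.231), so the Pearson relation rests on those arrays, which are among the ends of its range. By ranks of the deviations from group means the pair had a rho of 0.713 (adjusted permutation p = 0.0352). Slc4a1 with Alas2 had an r of 0.741 and a rho of 0.706 over all arrays (adjusted permutation p = 0.0128 and 0.0191) and an r of 0.479 without them (adjusted permutation p = 0.231). Fech probe 2 with Alas2 had an r of 0.67 and a rho of 0.734 (adjusted permutation p = 0.0247 and 0.0173), and an r of 0.484 without them (adjusted permutation p = 0.231). For Fech probe 2 with Hba-a1, r was 0.564 and rho 0.559 (adjusted permutation p = 0.0581 and 0.0757). For Slc4a1 with Fech probe 2, r was 0.558 and rho 0.434 (adjusted permutation p = 0.0581 and 0.161). Fech probe 1 was close to a tie with probe 2 for the highest mean, and its relations were not tested. The lowest normalized log2 level of probe 1, 4.84, was on AromhumH replicate 4, where Hba-a1 was highest. The Fech relations therefore hold for probe 2 alone, which itself lay close to background, with a highest normalized log2 level of 5.94.

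The beta-globin genes were highest on the same arrays as Hba-a1. Hbb-b2 is a beta-globin gene of the diffuse haplotype and Hbb-bs and Hbb-bt are those of the single haplotype, and their 11 probes together with the Hba-a1 probe made 12 adult globin probes. Near-identical globin copies can bind each other's probes, so the values of single genes of the family are uncertain. The diffuse and single haplotypes are alternative forms of the same locus, and which one these mice carried was not tested. The 3 beta-globin symbols therefore do not count as 3 separate measurements. The normalized level of all 12 was highest on the same 4 arrays, WT replicates 3 and 4 and AromhumH replicates 3 and 4, and in raw intensity 10 of the 12 were. Hbb-bt, by its probe with the highest mean, read 5567, 7260, 15180 and 14733 on WT replicates 1 to 4, 5660, 3623, 4190 and 6527 in AromhumL, and 6030, 8504, 18060 and 13425 in AromhumH. The r of Hba-a1 over the 12 arrays was 0.975 with Hbb-bt, 0.957 with Hbb-bs and 0.909 with Hbb-b2, with Spearman rho of 0.951, 0.895 and 0.874 (two-sided permutation p adjusted over these 3 pairs at most 9e-05 for r and 0.0004 for rho). These 3 relations were chosen after the values were seen. Without the same 2 arrays they were 0.98, 0.926 and 0.912.

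**Figure D4:**
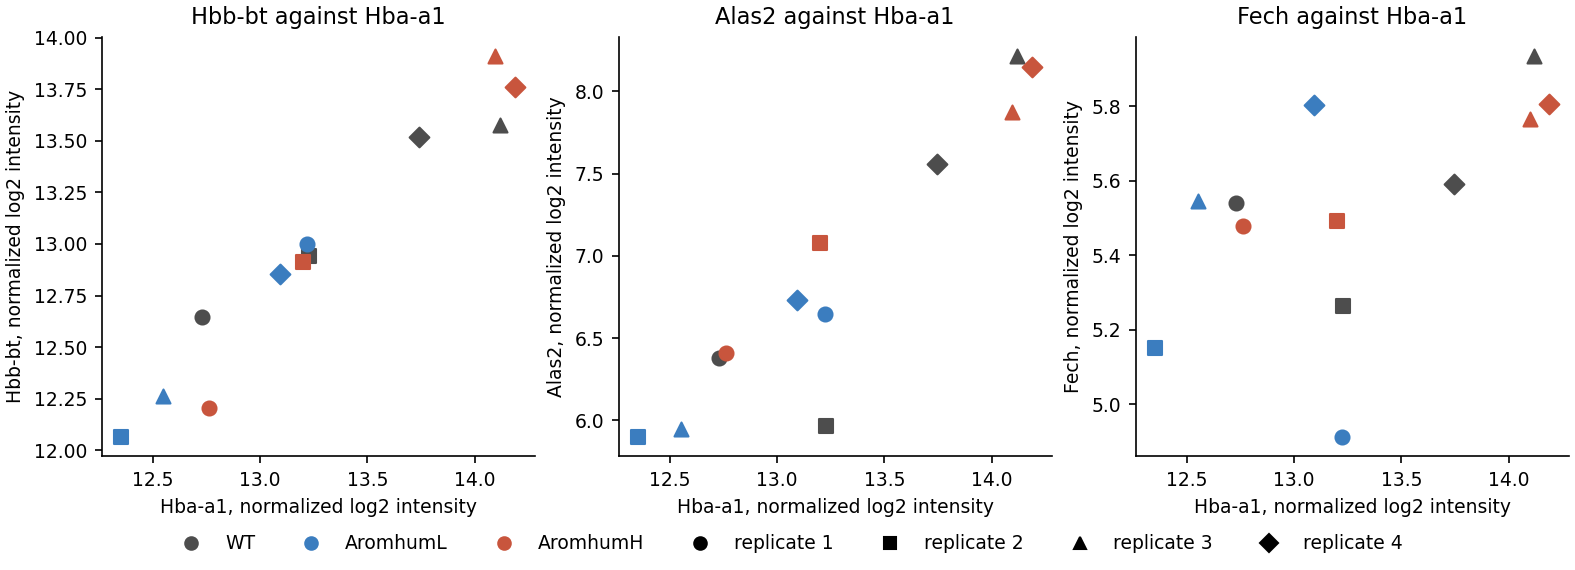
Normalized log2 intensity of Hbb-bt, Alas2 and Fech probe 2 against that of Hba-a1 on the 12 arrays, coloured by group, with symbols for the replicate number. Hbb-bt (r = 0.975) and Alas2 (r = 0.934) rise with Hba-a1, and Fech (r = 0.564) is more scattered. AromhumL arrays lie in the lower part of the line, with AromhumL replicates 2 and 3 lowest in Hba-a1, and WT and AromhumH arrays spread over most of it.

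By group, the 12 adult globin probes all had lower means in AromhumL than in WT, by -1.12 to -0.60 (median -0.75), and higher means in AromhumH than in AromhumL, by 0.65 to 1.38 (median 0.75). Against WT, AromhumH was above 0 for 8 and below 0 for 4 of them. Of the 12, 0 passed the test in any of the 3 comparisons, with adjusted p-values by limma no lower than 0.653, 0.814 and 0.115. The embryonic globins Hba-x and Hbb-y were detected on 0 arrays. Hbb-bh1, another embryonic globin, was detected on 6 of 12 arrays by 1 of its 2 probes and on 0 by the other. The detected probe read 73.0 to 98.0, close to background. Hba-a2 and Hbb-b1 had no named probe.

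Among the genes most like the members over arrays, the globins were joined by genes of several kinds. The likeness was the Pearson r over 12 arrays with the mean of the standardised levels of the 4 members. Most of the Slc4a1 values in that mean are background readings. In order, the 10 highest were Rtkn2 (0.931), Hbb-bs (0.914), Hbb-bt (0.883), Tnfrsf1b (0.872), Lmbr1 (0.87), Uros (0.853), Pak1ip1 (0.845), Ccnt2 (0.838), Synj2 (0.836) and Taf6 (0.835). Of these, Rtkn2, Tnfrsf1b, Lmbr1 and Pak1ip1 lay close to background. Their highest normalized log2 levels were 5.54, 5.12, 5.53 and 5.22, and they were detected on 9, 7, 8 and 10 of the 12 arrays. Tnfrsf1b encodes a receptor of tumour necrosis factor and Uros the haem synthesis enzyme uroporphyrinogen III synthase. The 5 most like Hba-a1 alone were Hbb-bt, Hbb-bs, Rtkn2 (0.945), Hbb-b2 and Ppp1r12a (0.894). They are the highest of 10575 genes, so high values at the top carry no test.

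The further genes of the haem pathway spread on both sides of 0 in their likeness to Hba-a1. For 6 enzymes other than Alas2 and Fech the median r with Hba-a1 was -0.08, from -0.557 for Alas1, the synthase of other tissues, to 0.83 for Uros, beside a median of -0.02 over all genes. In each comparison 0 of the 6 passed the test. Alas1 had the smallest p in AromhumH versus AromhumL, with a log2 difference of -0.34 (SE 0.133, adjusted p = 0.125 by limma), opposite in sign to Alas2. Its normalized log2 levels were 12.14, 12.23, 12.04 and 12.15 in AromhumL and 11.75, 11.82, 11.94 and 11.67 in AromhumH, which did not overlap, beside 8.05% of all genes that were lower in AromhumH without overlap. In WT they were 12.09, 11.98, 11.92 and 11.55, within or below the range of the transgenic groups. In AromhumH versus WT the enzyme with the smallest p was Alad (0.25, SE 0.153, adjusted p = 0.446 by limma), which joins aminolevulinate into porphobilinogen.

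Of 20 measured genes of haem and iron transport and haem breakdown, 0 passed the test in any comparison, and the list's median r with Hba-a1 was -0.05. Slc25a37, the mitochondrial iron importer mitoferrin that developing red cells use, had the highest r in the list, 0.697. Tfrc, the transferrin receptor that takes up iron, differed by -0.29 in AromhumL versus WT (adjusted p = 0.605 by limma) and by -0.33 in AromhumH versus WT (adjusted p = 0.26 by limma). The smallest p-values in the list belonged to Slc25a38, a mitochondrial glycine carrier (0.39 in AromhumL versus WT, adjusted p = 0.592 by limma), Ireb2, an iron-responsive RNA-binding protein (-0.35 in AromhumH versus WT, adjusted p = 0.211 by limma), and Blvra, biliverdin reductase (-0.39 in AromhumH versus AromhumL, adjusted p = 0.132 by limma).

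Of 16 further genes of the red cell membrane and skeleton with a probe, 8 passed the detection filter, all on 12 of 12 arrays, and 0 passed the test in any comparison. The lowest p-values were those of Gypc, glycophorin C, with -0.60 in AromhumH versus WT (SE 0.158, adjusted p = 0.0723 by limma), and of Ank1, ankyrin, with -0.45 in AromhumH versus AromhumL (SE 0.142, adjusted p = 0.0717 by limma). In AromhumL versus WT, Gypc differed by -0.34 and Ank1 by 0.30 (adjusted p = 0.592 for both by limma). Their list had a median r of -0.04 with Hba-a1. Epb42, Rhd and Kel were detected on 0 arrays and Rhag on at most 2.

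Several regulators of nucleated red cell precursors were at background. Gata1 was detected on 0 of 12 arrays by both its probes, Klf1 on 1 and the erythropoietin receptor Epor on 2. Tal1, Lmo2 and Ldb1, which form a complex with GATA1, were the 3 of the 9 genes with a probe in that list that passed the filter, and 0 passed the test. Tal1 was lower in AromhumL than in WT by -0.37 on the log2 scale (adjusted p = 0.592 by limma). Of 16 measured late red cell and reticulocyte genes 0 passed the test, their median r with Hba-a1 was 0.28, and the highest was that of Slc25a39 (0.66), a mitochondrial carrier. Car2, carbonic anhydrase 2, differed by -0.33 in AromhumL versus WT (adjusted p = 0.592 by limma), Tent5c by 0.27 in AromhumH versus WT (adjusted p = 0.331 by limma) and Slc25a39 by 0.32 in AromhumH versus AromhumL (adjusted p = 0.206 by limma). Ahsp, the chaperone of alpha globin, had no named probe.

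**Figure D5:**
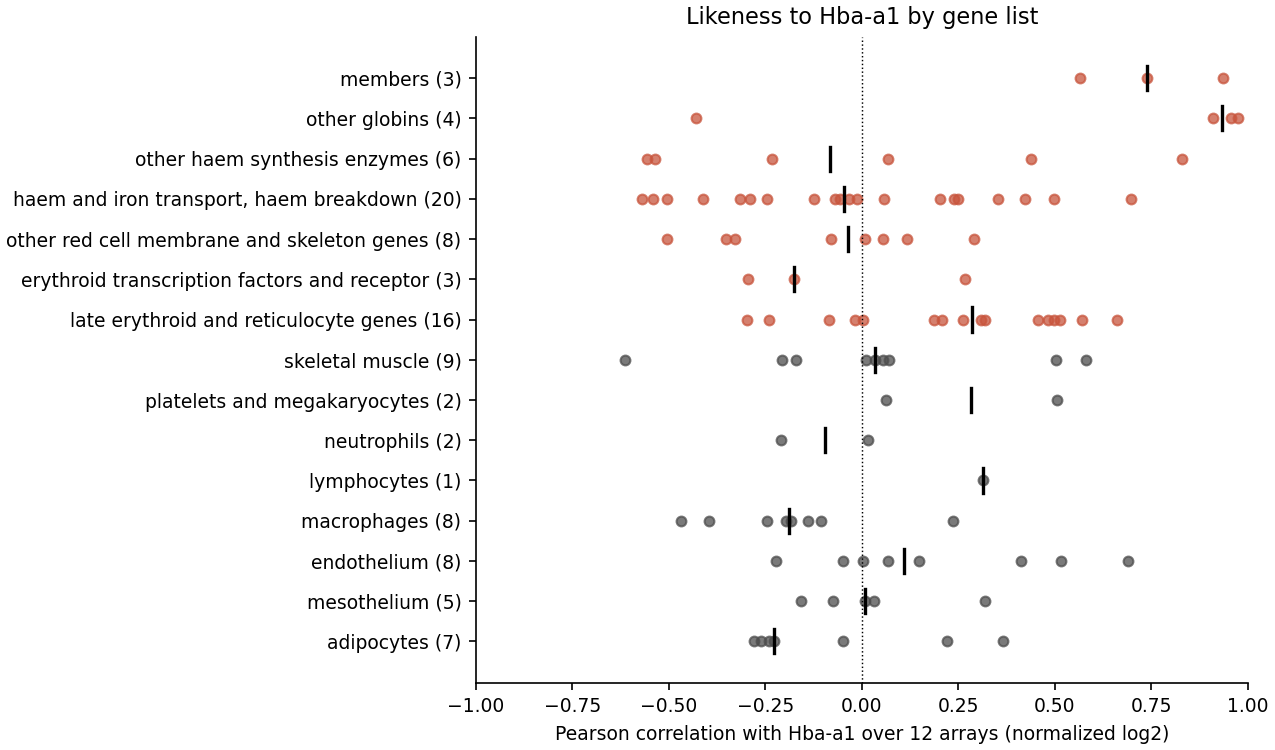
Pearson correlation with Hba-a1 over the 12 arrays for each tested gene of 15 lists, with the number of genes in brackets and a bar at each list's median. Lists of red cell and haem genes are in red and lists of cell types in grey. The adult globins and Alas2 lie above 0.9, while the medians of the lists other than the members and the other globins lie between -0.23 and 0.31.

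The mean level of 9 skeletal muscle markers was between 14.13 and 14.23 on every array, on the log2 scale. Normalization gave all arrays the same distribution of values, which limits how far such bright genes can differ. No other tissue was measured beside them, so the tissue label was not tested. Myoglobin (Mb), the oxygen-binding protein of muscle fibres, had 0.32 in AromhumH versus AromhumL by its brighter probe (SE 0.114, adjusted p = 0.0956 by limma), on which the groups did not overlap. Its other probe read 13.49 to 13.74 in AromhumL and 13.29 to 13.66 in AromhumH on the log2 scale, which overlap. Of the platelet markers, Pf4 and Itga2b passed the detection filter, Pf4 on 12 and Itga2b on only 7 of the 12 arrays. They were higher in AromhumH than in AromhumL by 0.72 (SE 0.272, adjusted p = 0.115 by limma) and 0.64 (SE 0.209, adjusted p = 0.0757 by limma). The mean log2 level of Pf4 and Itga2b ran from 6.96 to 7.69 in WT, from 6.90 to 7.17 in AromhumL and from 7.51 to 7.85 in AromhumH. Gp1bb, Gp5 and Gp9 were detected on 0 arrays, Treml1 on 2 and Ppbp on at most 3. The r with Hba-a1 was 0.504 for Pf4 and 0.063 for Itga2b, and 0.689 for the endothelial gene Pecam1, whose list had a median of 0.11. Of the cell type lists, that of mesothelium, the lining of the abdominal cavity, had calls. All 5 of its genes had higher means in AromhumH than in WT and in AromhumL. Of the 5, 4 were called higher in AromhumH versus WT, as were 0.879% of all genes. In AromhumH versus AromhumL 4 were called higher, as were 4.02% of all genes. The median r of the mesothelium list with Hba-a1 was 0.01. Of the tested markers of neutrophils, lymphocytes, macrophages, endothelium and adipocytes, 0 passed the test in any comparison. In AromhumL versus WT, 7 of 7 adipocyte genes had lower means (median -0.49, Cidec -1.39 with an adjusted p of 0.592 by limma), as did 7 of 8 endothelial genes (median -0.12). In AromhumH versus WT, 7 of 7 adipocyte genes also had lower means (median -0.36), as did 4 of 8 endothelial genes (list median 0.01). The median over all genes tested was 0.01 in both comparisons. The mean adipocyte level ran from 8.22 to 9.07 in WT, from 7.95 to 8.47 in AromhumL and from 7.46 to 9.55 in AromhumH, and its list had a median r of -0.23 with Hba-a1. The mean endothelial level ran from 8.43 to 8.78 in WT, from 8.32 to 8.64 in AromhumL and from 8.42 to 8.86 in AromhumH. The part of these cell types in the levels of the 4 genes was not tested.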

How the data were processed

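The members and the gene lists were chosen with earlier results of these data known. Groups and replicate numbers came from the sample titles. Per the file headers, the authors deposited 1 intensity per probe and array, not normalized between arrays, with a detection p-value beside each deposited intensity. The authors also deposited processed values, on a log2 scale judged from the values, with a median of 7.17 on every array; how these were made is not stated. Of 45281 probes, 34885 had 1 symbol in the platform annotation, 18 several and 10378 none, and only the first kind was named.

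Intensities were background-corrected and quantile-normalized with neqc of limma 3.58.1 in R 4.3.3 (offset 16, then log2). Probes detected (p under 0.05) on at least 4 of 12 arrays were kept, 19004 in all, and each gene took its named probe with the highest mean, giving 10575 genes. Group means were fitted with lmFit and eBayes, p-values were adjusted by Benjamini-Hochberg over all genes, and a second fit took all probes. The number of arrays limits the precision. The fitting was tested on simulated data. Correlations used two-sided tests with 100000 permutations (scipy 1.17.1). Named genes were the members, preset red cell genes, the gene of each list with the smallest p in a comparison, and the genes most like the members, without clone symbols. Genes named for the highest or lowest correlation of a list, Pf4 and Lmo2 were chosen after their values were seen. For globins and cell types, lists are given by counts. Slide positions are not known here, so no slide effect was fitted. Arrays of 1 group correlated at 0.977 to 0.988, and 0 pairs held identical values. The alternatives are given in the closing section.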

Additional observations from a re-analysis of the deposited data

How the results depend on the processing

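Over 10 alternative fits per comparison (detection on all 12 arrays left out Slc4a1) and 12 fits that each left out 1 array, 0 members were called in AromhumL versus WT and AromhumH versus WT, and none of the leave-out fits called a member in AromhumH versus AromhumL. An exact permutation test of each member gave no adjusted p. In AromhumL versus WT the differences stayed below 0, from -0.93 to -0.43 for Hba-a1, from -1.08 to -0.33 for Alas2 and from -0.43 to -0.02 for Fech, which was at -0.03 or nearer 0 in 4 of the alternatives. Slc4a1, not detected in AromhumL, ran from -0.53 to -0.06 as fitted. In AromhumH versus AromhumL, Hba-a1 kept its sign between 0.55 and 1.16 and Alas2 between 0.49 and 1.47. Scaling arrays to 1 median called 2 members there, Hba-a1 at 1.16 and Alas2 at 1.47, with the median of all genes at -0.26 in AromhumL versus WT, 0.09 in AromhumH versus WT and 0.35 in AromhumH versus AromhumL. Of the genes called in that last comparison, 99.2% were higher under this scaling and 66.6% in the reported fit.

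In AromhumH versus WT, signs turned when 1 array was left out. The range was -0.13 (without WT replicate 1) to 0.37 for Hba-a1, which was also -0.07 without AromhumH replicate 3 and -0.10 without AromhumH replicate 4. It was -0.01 (without WT replicate 2) to 0.74 for Alas2. It was -0.12 (without AromhumH replicate 4) to 0.14 for Slc4a1, with -0.05 without WT replicate 2, -0.07 without WT replicate 4 and -0.04 without AromhumH replicate 3. It was -0.054 (without WT replicate 2) to 0.17 for Fech, with -0.005 without AromhumH replicate 4. Fech also turned in AromhumH versus WT with no background correction (-0.24), the deposited processed values (-0.13), the mean of its probes (-0.14) and array brightness as a covariate (-0.007), and in AromhumH versus AromhumL with the first 3 of these (-0.21, -0.11 and -0.11). The first 2 settings took probe 1 in place of probe 2; the cause of the brightness result was not tested.

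The genes called in AromhumH versus WT numbered 125, from 2 without AromhumH replicate 2 to 316 without AromhumH replicate 3, and 36 with no detection filter to 150 with the trend and robust options. In AromhumH versus AromhumL they numbered 638, from 64 without AromhumL replicate 1 to 1060 without AromhumH replicate 3, and from 0 with array brightness as a covariate to 2589 with median scaling. In AromhumL versus WT they were 0 throughout by limma, with 503 higher and 382 lower at an unadjusted p under 0.05. As deviations from group means, the relations of Slc4a1 with Hba-a1 (0.62), Slc4a1 with Alas2 (0.64) and Fech with Alas2 (0.58) no longer passed by Pearson's r, while the first still passed by Spearman's rho (0.713). With the deposited processed values of the same probes, those of Fech probe 2 with Hba-a1 (0.604) and with Slc4a1 (0.59) passed as well. Unlike the fits on the processed values, which took Fech probe 1, these relations kept probe 2. With the replicate number as a block, 0 members were called in each comparison, and genes called were 0, 108 and 466. Each group holds replicates 1 to 4, so this block cannot change a difference of means and does not test its stability. The SE of Hba-a1 fell from 0.331 to 0.271, with an adjusted p of 0.624 by limma in AromhumL versus WT. The replicate numbers are not stated to pair samples. Of 12 same-numbered pairs, 2 had correlated deviations over 0.1, and 2 of 12 arrays correlated best with an array of their own number. The signal of Slc4a1 and of all 4 Fech probes lay close to background, which limits what their differences can show. Fech probes 1 and 2, though detected on 12 of 12 arrays, had highest normalized log2 levels of 6.03 and 5.94. Low signal also limits the relations of Fech probe 2 over arrays and those of Slc4a1, most of whose values are background readings.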
